A study of Sus scrofa with 4 samples.

Results

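The S100 calcium-binding proteins of the S100A group were followed in epidermal cells of the pig (Sus scrofa) sorted by the activity of LGR5, a marker of hair follicle stem cells. The genes were listed by name, with earlier results of these data known. They are the rows S100A1, S100A2, S100A4, S100A6, S100A8, S100A10, S100A11, S100A12, S100A14 and S100A16 of the deposited count table. All 10 were found among the 29837 named genes, and all 10 passed the filter on low counts. The list is not the whole S100A group. S100A3, S100A5, S100A7, S100A9 and S100A13 also have rows, and S100A5 and S100A7 did not pass the filter. They are described apart, and summaries of the 10 genes leave them out. RNA was sequenced from juvenile LGR5-H2B-GFP pigs, in which a histone H2B-GFP fusion was knocked into the first exon of a single LGR5 allele, so that the cells of both sorted populations carry the knock-in. The founder animals of this line were cloned from edited fetal fibroblasts, and GFP joined to histone is diluted at each cell division and so marks recent as well as present LGR5 activity. Hair and epidermis were peeled from the dermis with dispase, dissociated with trypsin and sorted for live cells with high GFP (LGR5-high) or without GFP (LGR5-negative). Each of 2 pigs, 88R and 95R, gave 1 library of each population, and the GFP-low cells of the sort were not analysed here.

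S100 proteins are small proteins of the EF-hand type that work mostly as dimers. Binding of calcium opens a surface with which most of them hold a partner protein, such as an annexin, a cytoskeletal protein or a transcription factor. Some are also released from cells and bind surface receptors, among them AGER (RAGE) and TLR4. In the epidermis, S100A2 is known from basal keratinocytes, S100A10 and S100A11 from cells that build the cornified envelope, and S100A8, S100A9 and S100A12 from white blood cells and from inflamed or wounded keratinocytes. No sequence of these genes or proteins was used here.

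The libraries held between 30696803 and 32463362 counts on named genes. A gene with 3 counts, the smallest signal taken as measurable, lay at 0.0873 to 0.105 CPM. CPM are a gene's counts per 1000000 counts of the library, with library sizes corrected by TMM, a trimmed mean of the ratios between libraries. The labelled populations were first checked by their markers. In pigs 88R and 95R, LGR5 itself was counted 4551 and 6224 times in LGR5-high and 36 and 109 times in LGR5-negative. Of 6 hair follicle stem cell markers tested, 5 were higher in LGR5-high. LGR5 is among these 5, and since the sort selected for its reporter, it is no independent check. All 6 markers of suprabasal and interfollicular epidermis were lower, among them KRT10 with a log2 fold change of -3.44 (SE 0.135). Of 4 basal keratinocyte markers, 2 were lower and the other two did not pass the test. KRT5, a keratin of basal keratinocytes, had a mean of 24577 CPM (SD 1292, n = 2 pigs) in LGR5-high against 27843 CPM (SD 2426) in LGR5-negative. KRT14 has no row in the table used here. Markers of cells other than keratinocytes are given beside the genes they bear on.

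S100A6, S100A8, S100A12, S100A1, S100A2 and S100A4 were higher in LGR5-high, by between 1.80-fold and 6.78-fold. S100A11 and S100A14 were lower, by 1.48-fold and 1.30-fold, and S100A16 and S100A10 did not pass the test. Thus 6 of the 10 genes were higher and 2 were lower in edgeR's quasi-likelihood test, at 0.05 after Benjamini-Hochberg adjustment over all 15980 tested genes. Of all these tested genes, 22.7% were higher and 22.0% were lower. The median log2 fold change (LGR5-high over LGR5-negative) of the 10 genes was 0.93, beside 0.02 for all tested genes. The CPM values did not overlap between the populations for 6 genes in the higher direction and 3 in the lower direction, and 39.2% and 37.4% of all tested genes did the same. A fit with the pig as a replicate block called 6 of the genes higher and 3 lower, the addition being S100A16, beside 28.5% and 27.2% of all tested genes.

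**Figure D1:**
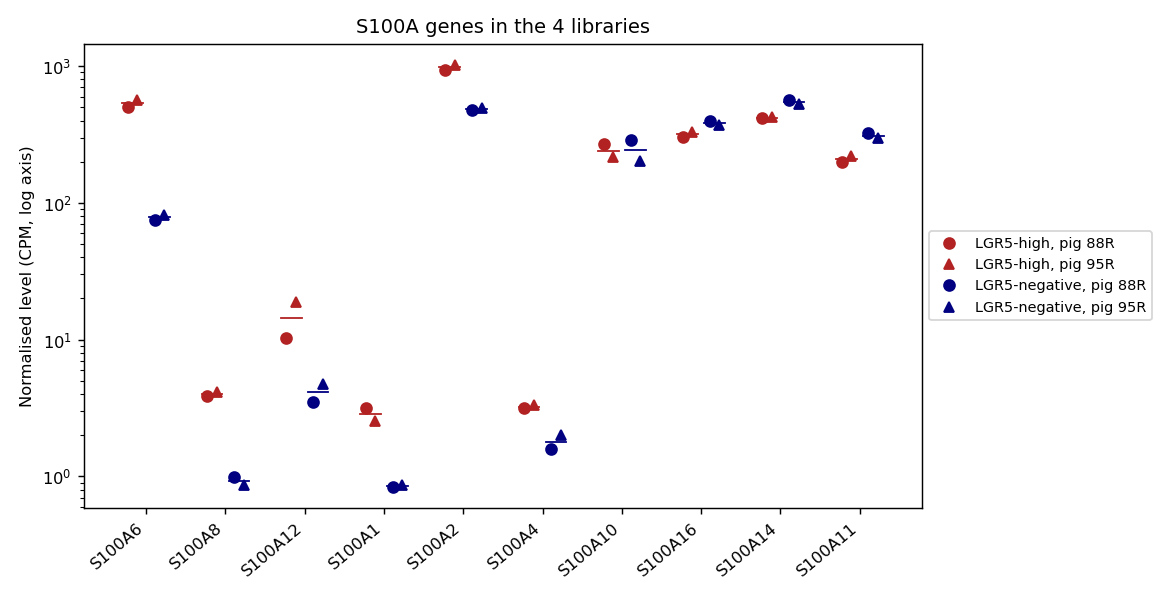
Normalised level (CPM, log axis) of each S100A gene in the 4 libraries, with red for LGR5-high, dark blue for LGR5-negative, circles for pig 88R, triangles for pig 95R and a short line at the mean of the 2 pigs. Genes are ordered by fold change. S100A6 had means of 535 and 78.9 CPM, while the libraries of S100A10 overlapped.

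How the calls split into higher and lower moved with the scaling. When libraries were scaled by their size alone, 6 S100A genes were higher and 1 lower, and over all tested genes 5473 were higher and 2326 lower in place of 3632 and 3508. This moved the median of all tested genes from 0.02 to 0.24, upper quartile scaling moved it to 0.11, and fold changes are to be read against these medians. In bulk libraries such as these, fewer cells of a type and less RNA per cell cannot be told apart.

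S100A6 (calcyclin), which binds the ubiquitin ligase adaptors CACYBP and SUGT1 and is known from proliferating cells, had the lowest p-value of the group. Its level was 501 and 569 CPM in LGR5-high (pigs 88R and 95R) and 75.6 and 82.2 CPM in LGR5-negative. Both LGR5-high libraries thus stood far above both LGR5-negative libraries. This gave S100A6 a log2 fold change of 2.76 (SE 0.105, adjusted p = 6.28e-05, edgeR). Pig 88R alone gave 2.73 and pig 95R alone 2.79. By p-value it ranked 79 among the 15980 tested genes. It was called under all 13 alternatives, with log2 fold changes between 2.67 and 2.98.

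S100A2, a gene known as a target of the basal keratinocyte factor TP63, was also higher. Its levels were 938 and 1019 CPM in LGR5-high (pigs 88R and 95R) and 480 and 495 CPM in LGR5-negative. The populations did not overlap, and the gap was many times the spread between the pigs. The log2 fold change of S100A2 was 1.01 (SE 0.0865, adjusted p = 5.17e-04, edgeR), which is 2.01-fold. In the same libraries TP63 itself had a mean of 569 CPM in LGR5-high against 642 CPM in LGR5-negative and did not pass the test (log2 fold change -0.17, SE 0.0813, adjusted p = 0.135, edgeR). Whether TP63 had a part in the S100A2 difference was not tested.

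S100A6 and S100A2 changed the make-up of the S100A counts. The 10 genes together took 0.295% ± 0.0107 of all counts in LGR5-high and 0.190% ± 0.00832 in LGR5-negative (SD, n = 2 pigs). Of these S100A counts, S100A6 took 19.6% ± 0.949 in LGR5-high and 3.84% ± 0.427 in LGR5-negative. The share of S100A2 was 35.9% ± 0.636 in LGR5-high and 23.7% ± 1.77 in LGR5-negative. The shares of S100A14, S100A16 and S100A11 were 15.4%, 11.6% and 7.70% in LGR5-high and 26.6%, 18.5% and 15.1% in LGR5-negative. Counts also follow transcript length, which was not used here, so the shares do not rank the genes. A share also falls when other S100A genes rise, so it does not give the change of the gene itself. That of S100A10 was 8.89% in LGR5-high and 11.8% in LGR5-negative, while its log2 fold change was -0.01.

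Ratios within a library do not depend on the scaling between libraries. For each count of S100A11, pigs 88R and 95R had 2.51 and 2.58 counts of S100A6 in LGR5-high, and 0.232 and 0.277 in LGR5-negative. For each count of S100A14 there were 2.24 and 2.41 counts of S100A2 in LGR5-high, and 0.848 and 0.934 in LGR5-negative. Both ratios were separated between the populations in each pig. Each pair set a gene called higher against one called lower in these same libraries, so the separation restates their fold changes. It does not show that either gene of a pair was constant.

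S100A4 (metastasin), which binds the heavy chain of nonmuscle myosin, and S100A1, a calcium sensor best known from heart and skeletal muscle, were measured at low levels. In pigs 88R and 95R, S100A4 was counted 108 and 110 times in LGR5-high and 45 and 61 times in LGR5-negative. Its levels were 3.14 and 3.33 CPM against 1.58 and 2.02 CPM, without overlap. Its log2 fold change was 0.84 (SE 0.263, adjusted p = 0.0447, edgeR), and this call was close to the threshold. It was lost when any single library was left out, with adjusted p-values between 0.0526 and 0.183, with all genes of at least 1 count (0.0504) and with DESeq2 (0.105).

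S100A4 is also expressed by fibroblasts, T cells and dendritic cells, and their markers were read in the same libraries. Of 8 fibroblast markers tested, 2 were higher and 5 lower in LGR5-high, with a summed level between 731 and 1012 CPM in LGR5-high and between 253 and 409 CPM in LGR5-negative. COL1A2 and COL1A1 were the higher ones (log2 fold changes 3.70 and 1.85), and DPT, COL3A1 and PDGFRA were among the lower ones (-2.15, -3.09 and -2.74). Of the LGR5-high sum, COL1A2 made up 497 and 561 CPM and COL1A1 142 and 331 CPM (pigs 88R and 95R). DCN, also lower (-0.82), had 83.4 and 112 CPM in LGR5-high and 182 and 163 CPM in LGR5-negative. The higher sum in LGR5-high thus reflects the 2 collagen genes and not the list as a whole. With single libraries left out, COL1A2 lay between 3.19 and 4.46, COL1A1 between 1.12 and 2.66, and COL3A1 between -3.69 and -2.08. PDGFRA, a defining receptor of fibroblasts, was counted 4 and 3 times in LGR5-high and 21 times in each LGR5-negative library. Its adjusted p-values were 0.0526 and 0.0671 without the LGR5-high library of pig 88R and of pig 95R, and those of COL1A1 were 0.174 and 0.0607 without the LGR5-high and without the LGR5-negative library of pig 95R (edgeR). DESeq2 did not call COL1A1 either (adjusted p = 0.0727). Of 7 Langerhans and dendritic cell markers tested, 6 were lower and the other did not pass the test, with a summed level of 12.3 to 15.6 CPM in LGR5-high and 174 to 253 CPM in LGR5-negative. SLA-DQA1, CD74 and SLA-DRA had log2 fold changes of -4.13, -3.94 and -4.39, and CD1E had 0 counts in all libraries. The 7 T cell markers in the table summed to between 0.175 and 0.496 CPM in the 4 libraries, and 0 of them passed the filter. CD3E, CD3D, CD3G and CD2 had 0 counts in both LGR5-high libraries. The part of these cells in the S100A4 difference was not tested.

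S100A1 was counted 109 and 84 times in LGR5-high, in pigs 88R and 95R, and 24 and 26 times in LGR5-negative, which is 3.17 and 2.54 against 0.842 and 0.860 CPM. The populations did not overlap. S100A1 had a log2 fold change of 1.74 (SE 0.295, adjusted p = 0.00575, edgeR). In the RefSeq annotation of Sscrofa11.1, S100A1 overlaps S100A13 (log2 fold change 0.23, SE 0.171, adjusted p = 0.324, edgeR). Whether strand was used in counting is not given in the sources used here, so reads in the overlap of S100A1 and S100A13 cannot be told apart.

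The calgranulin genes S100A8 and S100A12 were higher in LGR5-high, also at low levels. S100A8 encodes a subunit of calprotectin, which sequesters metal ions from microbes, and S100A12 encodes a secreted ligand of AGER. S100A8 was counted 133 and 137 times in LGR5-high, in pigs 88R and 95R, and 28 and 26 times in LGR5-negative. The populations did not overlap. For S100A8 the log2 fold change was 2.12 (SE 0.263, adjusted p = 0.00187, edgeR), and the pigs alone gave 1.91 and 2.19. S100A12 had 10.2 and 18.8 CPM in LGR5-high and 3.51 and 4.77 CPM in LGR5-negative. Pig 95R was above pig 88R in both populations, and the lower LGR5-high library still exceeded the higher LGR5-negative one. S100A12 had a log2 fold change of 1.81 (SE 0.336, adjusted p = 0.00800, edgeR), and the pigs alone gave 1.53 and 1.96. It was called without each of the 4 libraries, at log2 fold changes between 1.31 and 2.17.

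S100A9, the other calprotectin subunit and not among the 10 genes, was counted 129 and 182 times in LGR5-high and 30 and 63 times in LGR5-negative. The log2 fold change was 1.56 (SE 0.397, adjusted p = 0.0237, edgeR), and without the LGR5-high library of pig 95R it was 1.26 (adjusted p = 0.127, edgeR). For each count of S100A9, pigs 88R and 95R had 1.03 and 0.753 counts of S100A8 in LGR5-high, and 0.933 and 0.413 in LGR5-negative. In pig 88R the counts of both calprotectin subunits were nearly equal.

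The calgranulins are abundant in neutrophils and monocytes, and a list of markers of these cells was read in the same libraries. Of 12 markers listed, 11 had a row and 10 were tested, of which 1 was higher and 7 lower in LGR5-high. Their summed level was 19.4 to 22.1 CPM in LGR5-high and 52.3 to 98.9 CPM in LGR5-negative. LYZ, not called (adjusted p = 0.0627, edgeR), made up 73.4 and 8.47 CPM of this in LGR5-negative (pigs 88R and 95R). ITGAM, not called either, made up 0.175 and 9.07 CPM in the same libraries. SPI1, the master transcription factor of myeloid cells, had a log2 fold change of -2.58 (SE 0.185), PTPRC (CD45) one of -3.84 (SE 0.451) and TYROBP one of -3.68 (SE 0.468). PTPRC was counted 7 and 4 times in LGR5-high and 55 and 86 times in LGR5-negative, and MPO had 0 counts in all libraries. CSF3R and CXCR2, also lower, had few counts. In LGR5-high CSF3R was counted 2 and 3 times and CXCR2 2 and 4 times. In LGR5-negative CSF3R was counted 16 and 26 times and CXCR2 13 and 15 times. The higher marker was AIF1, a calcium-binding protein of macrophages, with a log2 fold change of 2.15 (SE 0.258, adjusted p = 0.00163, edgeR). The part of neutrophils and monocytes in the differences of S100A8, S100A12 and S100A9 was not tested.

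**Figure D2:**
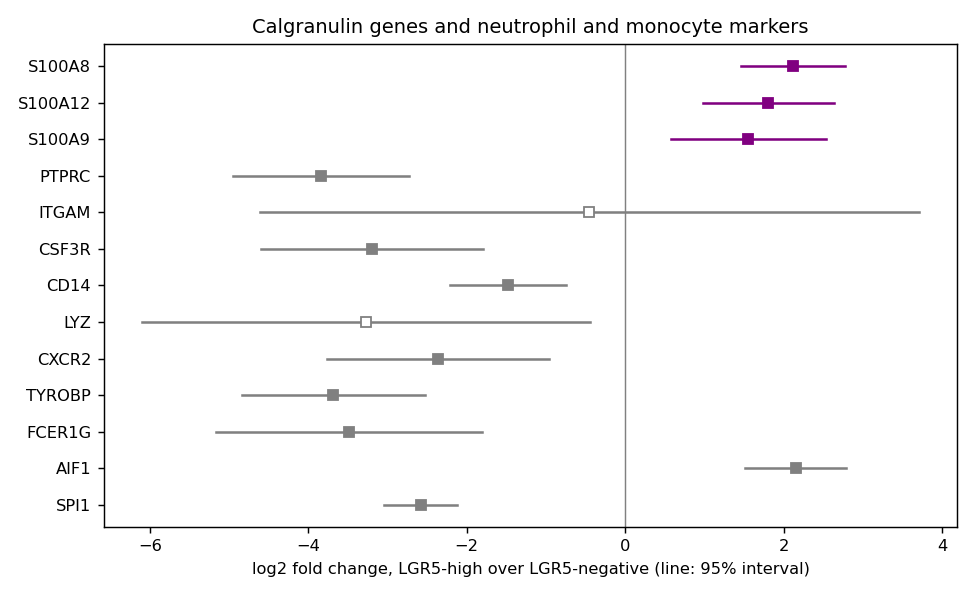
Log2 fold change (LGR5-high over LGR5-negative, x axis) with its 95% interval for S100A8, S100A12 and S100A9 (purple) and the 10 tested neutrophil and monocyte markers (grey). Filled squares passed an adjusted p-value of 0.05 and open squares did not. The calgranulins lie between 1.56 and 2.12, and 7 of the markers are filled and to the left of 0, while AIF1 lies at 2.15.

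S100A11, S100A14 and S100A16 lay on the other side of 0. S100A11 (calgizzarin), an annexin A1 partner that is crosslinked into the cornified envelope, had 200 and 221 CPM in LGR5-high (pigs 88R and 95R). In LGR5-negative it had 326 and 296 CPM. The populations did not overlap, and the difference was larger in pig 88R. S100A11 had a log2 fold change of -0.57 (SE 0.0940, adjusted p = 0.00542, edgeR), and the pigs alone gave -0.71 and -0.42. With library size only it was -0.34 (adjusted p = 0.0246, edgeR), so S100A11 kept its call under this scaling.

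S100A14 and S100A16 are epithelial S100 genes whose products can bind each other. S100A14 had 419 and 423 CPM in LGR5-high (pigs 88R and 95R) and 566 and 530 CPM in LGR5-negative. Its 2 LGR5-high libraries were nearly equal, and both were below the LGR5-negative ones. The log2 fold change of S100A14 was -0.38 (SE 0.0802, adjusted p = 0.0125, edgeR). With library size only it was -0.16 (adjusted p = 0.147), and without the LGR5-high library of pig 88R or that of pig 95R the adjusted p-values were 0.0748 and 0.0755 (edgeR).

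S100A16 had 302 and 332 CPM in LGR5-high (pigs 88R and 95R) and 395 and 368 CPM in LGR5-negative. Its values did not overlap, but the gap was narrower than that of S100A14. S100A16 thus had a log2 fold change of -0.27 (95% interval -0.49 to -0.05 before adjustment for the number of genes, adjusted p = 0.0538, edgeR) and was not called. The replicate block left it at -0.27 but called it (adjusted p = 0.0201, edgeR), and with library size only it was -0.04 (adjusted p = 0.699, edgeR). For each count of S100A14, the 4 libraries had between 0.695 and 0.783 counts of S100A16.

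S100A10 (p11) differs from its relatives in that its EF hands do not bind calcium, and it forms a stable complex with annexin A2. Its level was 268 and 215 CPM in LGR5-high (pigs 88R and 95R) and 286 and 201 CPM in LGR5-negative. The populations overlapped, and both libraries of pig 88R were above both libraries of pig 95R. The log2 fold change of S100A10 was -0.01 (95% interval -0.49 to 0.46, adjusted p = 0.957, edgeR), and its sign changed to 0.08 with upper quartile scaling and to 0.21 with library size only. In the fit with the replicate block the interval was -0.19 to 0.19.

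**Figure D3:**
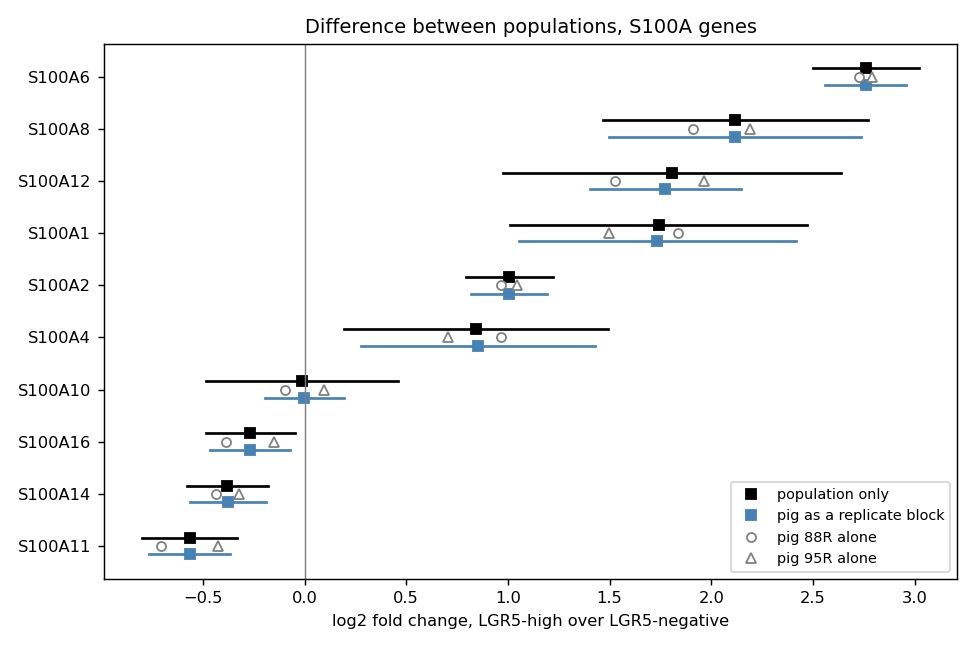
Log2 fold change of each S100A gene (x axis, LGR5-high over LGR5-negative) with its 95% interval from the test on the population only (black squares) and with the pig as a replicate block (blue squares). Open circles and triangles give pigs 88R and 95R alone. S100A6 lies at 2.76 and S100A11 at -0.57, and only the interval of S100A10 spans 0 in the black series.

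The partners of the S100A proteins were read as a list of their own. Of 14 intracellular partners tested, 1 was higher and 4 lower in LGR5-high, with a median log2 fold change of -0.18, while the fit with the replicate block gave 2 higher and 5 lower. ANXA1, the partner of S100A11, had a mean of 767 CPM (SD 50.9, n = 2 pigs) in LGR5-high against 2150 CPM (SD 63.1) in LGR5-negative, with a log2 fold change of -1.49 (SE 0.0934, adjusted p = 1.93e-04, edgeR). AHNAK, a very large scaffold protein that binds the complex of S100A10 and annexin A2, had a log2 fold change of -1.37 (SE 0.0986). ANXA2, which codes for annexin A2, had 1365 and 1384 CPM in LGR5-high against 2118 and 1856 CPM in LGR5-negative. Its log2 fold change was -0.53 (SE 0.0991, adjusted p = 0.00804, edgeR), and without the LGR5-high library of pig 88R or of pig 95R the adjusted p-values were 0.0551 and 0.0572. ANXA6, an annexin known to bind S100A6, was the higher one, at 2.49 (SE 0.202). CACYBP and SUGT1, the S100A6 partners named above, were not called, at -0.17 (adjusted p = 0.179) and -0.05 (adjusted p = 0.696, edgeR). ATP2A2, the calcium pump that S100A1 stimulates in muscle, was the fourth lower partner, at a log2 fold change of -0.41 (SE 0.0873). It was not called without the LGR5-high library of pig 95R (log2 fold change -0.33). With library size only it was -0.18 and not called either (adjusted p = 0.136, edgeR).

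For each count of ANXA2, pigs 88R and 95R had 0.197 and 0.155 counts of S100A10 in LGR5-high, and 0.135 and 0.109 in LGR5-negative. This ratio was higher in LGR5-high within each pig. In these same libraries S100A10 had a log2 fold change of -0.01 and ANXA2 one of -0.53, so the ratio restates their fold changes.

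**Figure D4:**
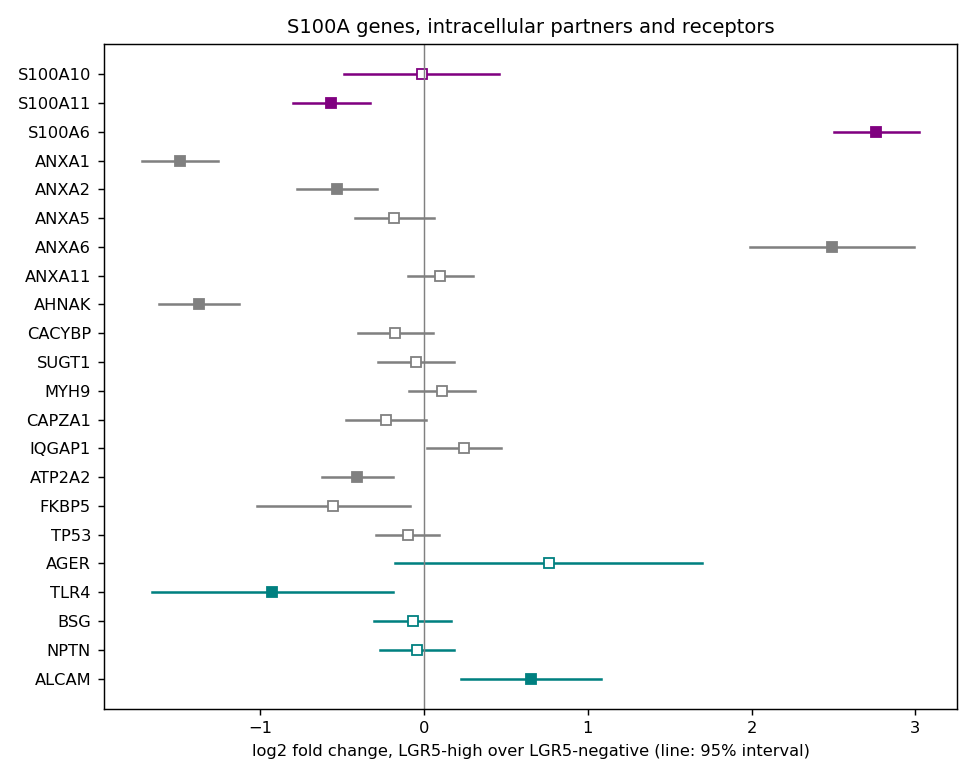
Log2 fold change (x axis, LGR5-high over LGR5-negative) with its 95% interval for S100A10, S100A11 and S100A6 (purple), the 14 tested intracellular partners (grey) and the 5 tested receptors (green). Filled squares passed an adjusted p-value of 0.05 and open squares did not. ANXA1 and AHNAK lie at -1.49 and -1.37, and ANXA6 lies at 2.49.

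Of 5 S100 receptor genes tested, 1 was higher and 1 lower. AGER, the receptor of S100A12 among others, was counted 85 and 46 times in LGR5-high and 31 and 36 times in LGR5-negative. A log2 fold change of 0.76 (SE 0.378, adjusted p = 0.154, edgeR) did not pass the test. TLR4, a receptor of calprotectin, had -0.93 (SE 0.298, adjusted p = 0.0499, edgeR). That call sat at the threshold and was lost without the LGR5-high library of either pig or the LGR5-negative library of pig 95R (adjusted p = 0.0910, 0.207 and 0.185, edgeR), and with library size only (0.103). The adhesion molecule gene ALCAM had 0.65 (SE 0.173, adjusted p = 0.0268, edgeR). Without the LGR5-high library of pig 88R its adjusted p was 0.113, and without the LGR5-negative library of pig 88R it was 0.0564 (edgeR).

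The 10 genes lie on the same chromosome of Sscrofa11.1, an assembly taken here for the order of genes only. S100A1, S100A13, S100A14, S100A16, S100A2, S100A3, S100A4, S100A5 and S100A6 follow each other with 0 other annotated genes between neighbours. S100A7 and S100A8 follow, each after 1 other gene, and S100A12 and then S100A9 come next after S100A8. S100A11 and S100A10 are neighbours at the far side of the genes for the fused S100 proteins, large proteins of cornified cells that begin with an S100 domain. In this order S100A1 was higher, S100A14 was lower and S100A16 was not called. S100A2, S100A4, S100A6, S100A8 and S100A12 were higher, with the call of S100A4 lost without any single library. Of the other small S100 genes between or beside these, S100A13 and S100A3 were not called. S100A5 and S100A7 were not tested, and S100A9 was higher. At the other end S100A11 was lower and S100A10 was not called.

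**Figure D5:**
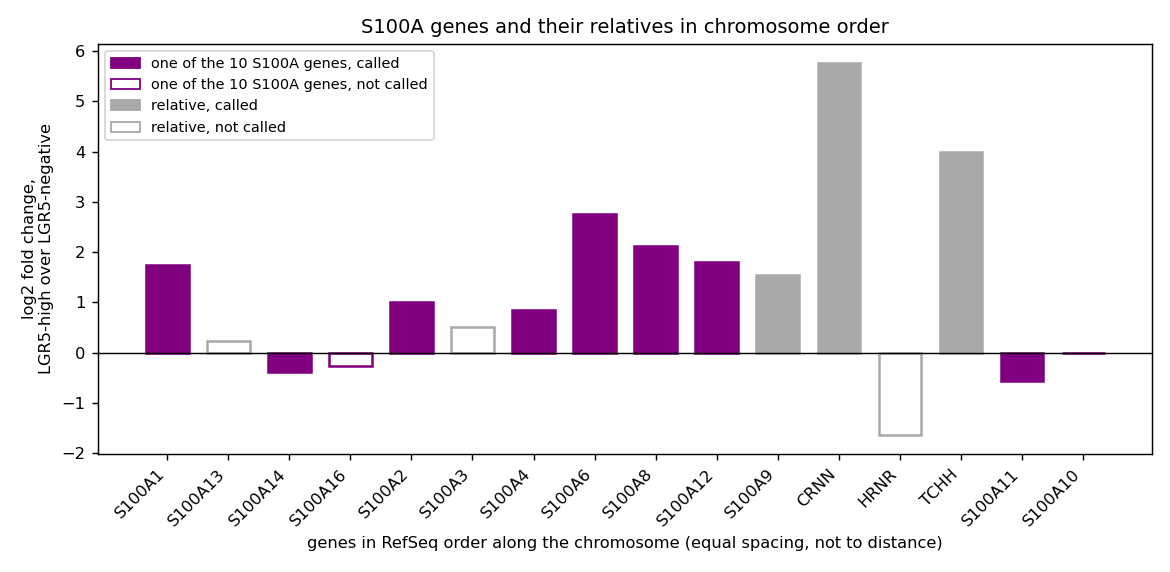
Log2 fold change (y axis, LGR5-high over LGR5-negative) of the 10 S100A genes (purple) and their tested relatives on the same chromosome (grey) in the order of the RefSeq annotation, with equal spacing. Filled bars passed an adjusted p-value of 0.05 and open bars did not. The bar of S100A6 reaches 2.76, and S100A11 and S100A10 at the right end lie at -0.57 and -0.01.

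Among the other small S100 genes, 8 of 11 listed had a row and 4 were tested, of which 2 were higher and the other two did not pass. Besides S100A9, the higher one was S100B, a gene of glia and melanocytes, counted 213 and 421 times in LGR5-high, in pigs 88R and 95R, and 17 and 63 times in LGR5-negative. Its log2 fold change was 2.81 (SE 0.614, adjusted p = 0.0141, edgeR), and without single libraries it lay between 2.17 and 3.97, with the call lost without the LGR5-high library of pig 95R (2.21, adjusted p = 0.0724, edgeR). Of 7 melanocyte markers tested, 5 were lower beside it and the other two did not pass, with TYRP1, SOX10 and PMEL at log2 fold changes of -4.54, -2.69 and -3.23. Without the LGR5-negative library of pig 95R these were -3.11, -1.90 and -1.97, and without that of pig 88R they were -5.26, -3.21 and -3.90. SOX10 was not called without the LGR5-high library of pig 88R (adjusted p = 0.0525, edgeR), nor PMEL without that of pig 95R (0.0685). The summed level of the 7 melanocyte markers was 62.5 to 62.6 CPM in LGR5-high and 85.0 to 261 CPM in LGR5-negative. Of the LGR5-high sum, the uncalled DCT made up 25.5 and 24.0 CPM and the uncalled MITF 25.2 and 29.7 CPM (pigs 88R and 95R). In LGR5-negative PMEL had 31.5 and 120 CPM and DCT 21.3 and 77.8 CPM. With the replicate block 1 marker, MITF, was higher (log2 fold change 0.30) and 6 were lower. The part of melanocytes in the S100B difference was not tested. S100A3, a protein of the hair cuticle, was counted 322 and 392 times in LGR5-high and 290 and 145 times in LGR5-negative. The pigs alone gave log2 fold changes of -0.12 and 1.30, and the fit over both pigs gave 0.51 (95% interval -0.38 to 1.39, adjusted p = 0.297, edgeR). Without the LGR5-negative library of pig 88R it was 1.14 (adjusted p = 0.0144), and without that of pig 95R it was 0.05 (adjusted p = 0.877, edgeR). S100A5, S100A7, S100G and S100Z did not pass the filter and had at most 15 counts in any library.

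Of the fused S100 genes, 5 of 7 listed had a row and 3 were tested, of which 2 were higher and the other did not pass. CRNN (cornulin) was counted 1338 and 1182 times in LGR5-high and 13 and 27 times in LGR5-negative, a log2 fold change of 5.77 (SE 0.266, adjusted p = 9.14e-05, edgeR). TCHH (trichohyalin), a protein of the inner root sheath of the hair follicle, had one of 4.00 (SE 0.268, adjusted p = 2.36e-04, edgeR). HRNR (hornerin), a protein of the upper epidermis, had 11 and 35 counts in LGR5-high and 26 and 102 in LGR5-negative. At a log2 fold change of -1.64 (SE 0.785, adjusted p = 0.141, edgeR) it was not called, but it was at -1.61 with the replicate block (adjusted p = 0.00109, edgeR) and at -2.30 without the LGR5-negative library of pig 88R (adjusted p = 0.0269, edgeR). Without the LGR5-negative library of pig 95R it was -0.42 (adjusted p = 0.688), without the LGR5-high library of pig 88R -1.02 (0.406) and without that of pig 95R -2.72 (0.112, edgeR). RPTN and TCHHL1 had at most 5 counts in any library.

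Endothelial markers were read as well, as S100A6 and S100A4 are expressed in vessels. Of 6 tested, 5 were lower in LGR5-high and the other did not pass the test, with a summed level of 6.28 to 7.60 CPM in LGR5-high and 21.4 to 21.5 CPM in LGR5-negative. VWF (von Willebrand factor) had a log2 fold change of -2.84.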

How the data were processed

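Poly(A) RNA of LGR5-high and LGR5-negative epidermal cells from 2 pigs was sequenced from both ends, per the study's methods. What the authors deposited are unnormalized counts of reads for each gene symbol. The submitters' processing notes name Trimmomatic 0.36, STAR 2.5.2b, and featureCounts with Subread 1.5.2. The genome build, annotation and strand setting are not given in the sources used here. All 29837 names matched RefSeq symbols of Sscrofa11.1, used for names and gene order only. An entry without a name held at most 0.626% of a library's counts and was left out.

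Tests were run with edgeR 4.0.16 under R 4.3.3. The filter was filterByExpr (minimum count 10, minimum total count 15) and the scaling TMM. Its 2-sided quasi-likelihood test compared the populations without further terms, and p-values were adjusted over 15980 genes by the method of Benjamini and Hochberg. SE is the log2 fold change divided by the square root of the F statistic. The log2 fold changes of single pigs used a prior count of 2, and floors cover counting error only. The pigs pair the libraries, since each gave both populations, and across genes the deviations of a pig's libraries from their group means correlated at 0.370. With 2 pigs, the p-values rest on a spread shared across genes. The libraries within LGR5-high and within LGR5-negative were not copies of each other (chi-square over its degrees of freedom, 20.3 and 23.1).

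As alternatives, TMM was replaced by library size only, upper quartile scaling or DESeq2 size factors, and the filter by 1 count in total or by 10 counts in every library. Others were the pig as a replicate block, DESeq2 1.42.0, limma-voom (limma 3.58.1), the Student test that the study's methods name, on log2(CPM + 1), and each library left out in turn. The tests were tested on simulated data. The 10 genes and the lists of partners, receptors and markers were chosen with earlier results of these data known. Beside the 10 genes, the text names the tested small and fused S100 genes, ANXA1, ANXA2, AGER, and up to 3 called genes of each direction and list by p-value. A gene named for another reason, such as KRT5 or TP63, was chosen after its values were seen. Plots were drawn with matplotlib 3.10.9.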

Additional observations from a re-analysis of the deposited data

How the results depend on the processing

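Of the 130 values of the 10 S100A genes under the 13 alternatives, 105 kept both their direction and their side of the threshold, 15 lost a call, 4 gained one and 6 changed sign. The gains were all S100A16, and the sign changes were all S100A10, which was not called under any alternative. S100A10 had log2 fold changes of 0.0797 with upper quartile scaling, 0.21 with library size only, 0.0161 when every library needed 10 counts, and 9e-04 with limma-voom, and between -0.25 and 0.26 with single libraries left out. KRT5 changed sign as well, to 0.0442 with library size only. That scaling called 5473 genes higher and 2326 lower, and 1 S100A gene lower. The Student test on log2(CPM + 1) called 544 genes higher and 502 lower, and 2 and 0 S100A genes, S100A6 and S100A8, while 5 and 2 S100A genes had an unadjusted p under 0.05. The fit with the pig as a replicate block called 4562 genes higher and 4342 lower, and 6 and 3 S100A genes. Of the 10 S100A genes, the replicate block changed the call of S100A16 and of no other. Without single libraries, between 2279 and 3169 genes were higher, between 2139 and 3004 were lower, 5 S100A genes were higher under each and between 1 and 2 were lower, since S100A4 was lost each time and S100A14 without either LGR5-high library. Fewer libraries were fitted there, and a population with a lone library was assumed to vary like the other. The cause of the other changes was not tested. S100A1, S100A4 and S100A8 had 137 counts or fewer in each library.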

Other observations

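The genes whose pattern over the 4 libraries was most like that of a given S100A gene were sought by the distance between centred log2 CPM values, for the 3 S100A genes with the smallest p-values. With only 4 libraries, this likeness mainly restates the size of the difference between the populations. The nearest genes to S100A6 were DHCR7, the enzyme of the last step of cholesterol synthesis, at a distance of 0.0591 and a log2 fold change of 2.78, and LOC102165730 at a distance of 0.0896. The nearest to S100A2 were LOC100736666 at 0.0338 and ELMOD3 at 0.0567, with log2 fold changes of 1.05 and 0.96. The nearest to S100A8 were CCDC102A at 0.0520 and LOC110257592 at 0.0855, with log2 fold changes of 2.09 and 2.18.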
